A study of Mus musculus with 9 samples.

Results

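Genes that encode integrins, laminins and other structural proteins of the basement membrane were examined in sorted keratinocytes of mouse back skin. The members were taken by name from the deposited table: protein-coding symbols that begin with Itga or Itgb and a digit, the integrin genes Itgae, Itgal, Itgam, Itgav and Itgax, symbols that begin with Lama, Lamb or Lamc and a digit, and Nid1, Nid2, Hspg2, Agrn, Dst and Plec. The rule found 46 of 55357 genes in the table, and 40 of these had enough counts to be tested. No measured value entered the rule, though the members were chosen with earlier results of these data known. Itgb1bp1, Itgb1bp2 and Itgb3bp came in by name only, since they encode proteins named for binding integrin β chains and not integrins.

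To set touch dome keratinocytes beside other epidermal lineages, the study compared 3 populations sorted from C57BL/6 mice of the genotype TNC-CREER; tdTomato at postnatal day 60. In these mice a tamoxifen-inducible Cre expressed from the Tenascin-C gene (Tnc) turns on a red reporter, so the reporter marks cells in which that Cre was active around the injections and their progeny. All groups received tamoxifen at 100 µg per g body weight on days 51 and 52, and all cells came from back skin digested with 0.25% trypsin for 60 min at 37 °C. Touchdome cells were EPCAM+, integrin α6+, SCA1+ and TOMATO+, IFE (interfollicular epidermis) cells were EPCAM+, integrin α6+, SCA1+ and TOMATO-, and HF (hair follicle) cells were EPCAM+, integrin α6+, SCA1- and TOMATO-, with 3 poly(A) RNA-seq libraries each. Integrin α6 is encoded by the member Itga6, so its presence in all groups was set by the sort. Whether the libraries of 1 group are from different mice is not stated in the labels, and the p-values therefore reflect library-to-library spread, which may be technical.

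A basement membrane is the thin sheet of extracellular matrix on which epithelia sit. Its core is a network of laminins, each a trimer of an α, a β and a γ chain, tied to a collagen IV network by nidogens and the heparan sulfate proteoglycans perlecan and agrin. Cells hold on to it through integrins, which are pairs of an α and a β chain; in basal keratinocytes integrin α6β4 binds a laminin that holds the α3 and β3 chains and is coupled to keratin filaments by the plakins plectin and dystonin in hemidesmosomes, while integrins with the β1 chain connect to actin. In skin this layer separates epidermis from dermis and continues around the hair follicles.

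Totals of 9295059 to 28249763 expected counts per library were deposited. On a principal component analysis over all tested genes, Touchdome replicate 3 stood nearest of its group to HF (-2.9 on the first component, against -37.6 and -40.7 for the other Touchdome libraries and 89.2 to 98.7 for HF), and its summed fibroblast markers were 74.6 CPM against 21.7 and 24.0 CPM. IFE replicate 2 stood apart in transcript length, as described below for the members. Tnc was at 200.4, 282 and 288 CPM in Touchdome against 6.10, 1.13 and 7.16 CPM in IFE and 40.6, 56.9 and 54.0 CPM in HF, and Ly6a, which encodes SCA1, was at 0.914, 0.422 and 1.90 CPM in HF against 104 to 179.6 CPM elsewhere. The 5 basal keratinocyte markers summed to 29902 to 31714 CPM in HF, 40360 to 44528 CPM in Touchdome and 52126 to 56499 CPM in IFE. The 6 Merkel cell markers summed to 1.33 to 9.53 CPM in Touchdome, 0.114 to 0.316 CPM in IFE and 1.90 to 2.82 CPM in HF. Of these, Atoh1 and Sox2 had 0 counts throughout, and Krt8 was called higher in Touchdome and in HF than in IFE.

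Between Touchdome and IFE, 1 of 40 tested members was called at an adjusted p under 0.05 in the quasi-likelihood test of edgeR, the integrin gene Itga4, which was higher in Touchdome; 1.30% of all 15046 tested genes were called in that comparison, 1.22% as higher and 0.0798% as lower. Between Touchdome and HF, 5 members were higher in Touchdome (Itga3, Itga6, Itgae, Lama1 and Lamc3) and 7 lower (Agrn, Itga1, Itga4, Itga5, Itgb8, Lama4 and Lamb1), beside 24.6% of all tested genes called, 11.8% higher and 12.8% lower. Between HF and IFE, 10 members were higher in HF (Agrn, Hspg2, Itga1, Itga4, Itga5, Itgb5, Itgb8, Lama4, Lamb1 and Nid1) and 6 lower (Itga2, Itga3, Itga6, Itga7, Itgb1bp1 and Lama1), beside 33.0% of all genes called, 17.1% higher and 16% lower. The members' share of calls (2.50%, 30% and 40%) was near the share of all genes in each comparison, so the result lies in which members differed and by how much. The median size of a member's log2 fold change was 0.33 in Touchdome against IFE, 0.44 in Touchdome against HF and 0.72 in HF against IFE, beside 0.17, 0.35 and 0.42 over all tested genes, while the signed medians were 0.09, 0.03 and 0.01 beside 0.00 over all genes.

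Some members passed the filter on low counts with all 9 libraries but not with the 2 compared groups alone: Itga4, Itgax and Nid1 for Touchdome against IFE, Lama2 and Lamc3 for Touchdome against HF, and Itgal, Itgb7, Lama2 and Lamc3 for HF against IFE. In bulk RNA, fewer cells that express a gene and less of its RNA per cell cannot be told apart, here and in all that follows. The plot of fold changes by role shows the 3 comparisons side by side. They share groups, so a gene that stood out in HF moves 2 of them.

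**Figure D1:**
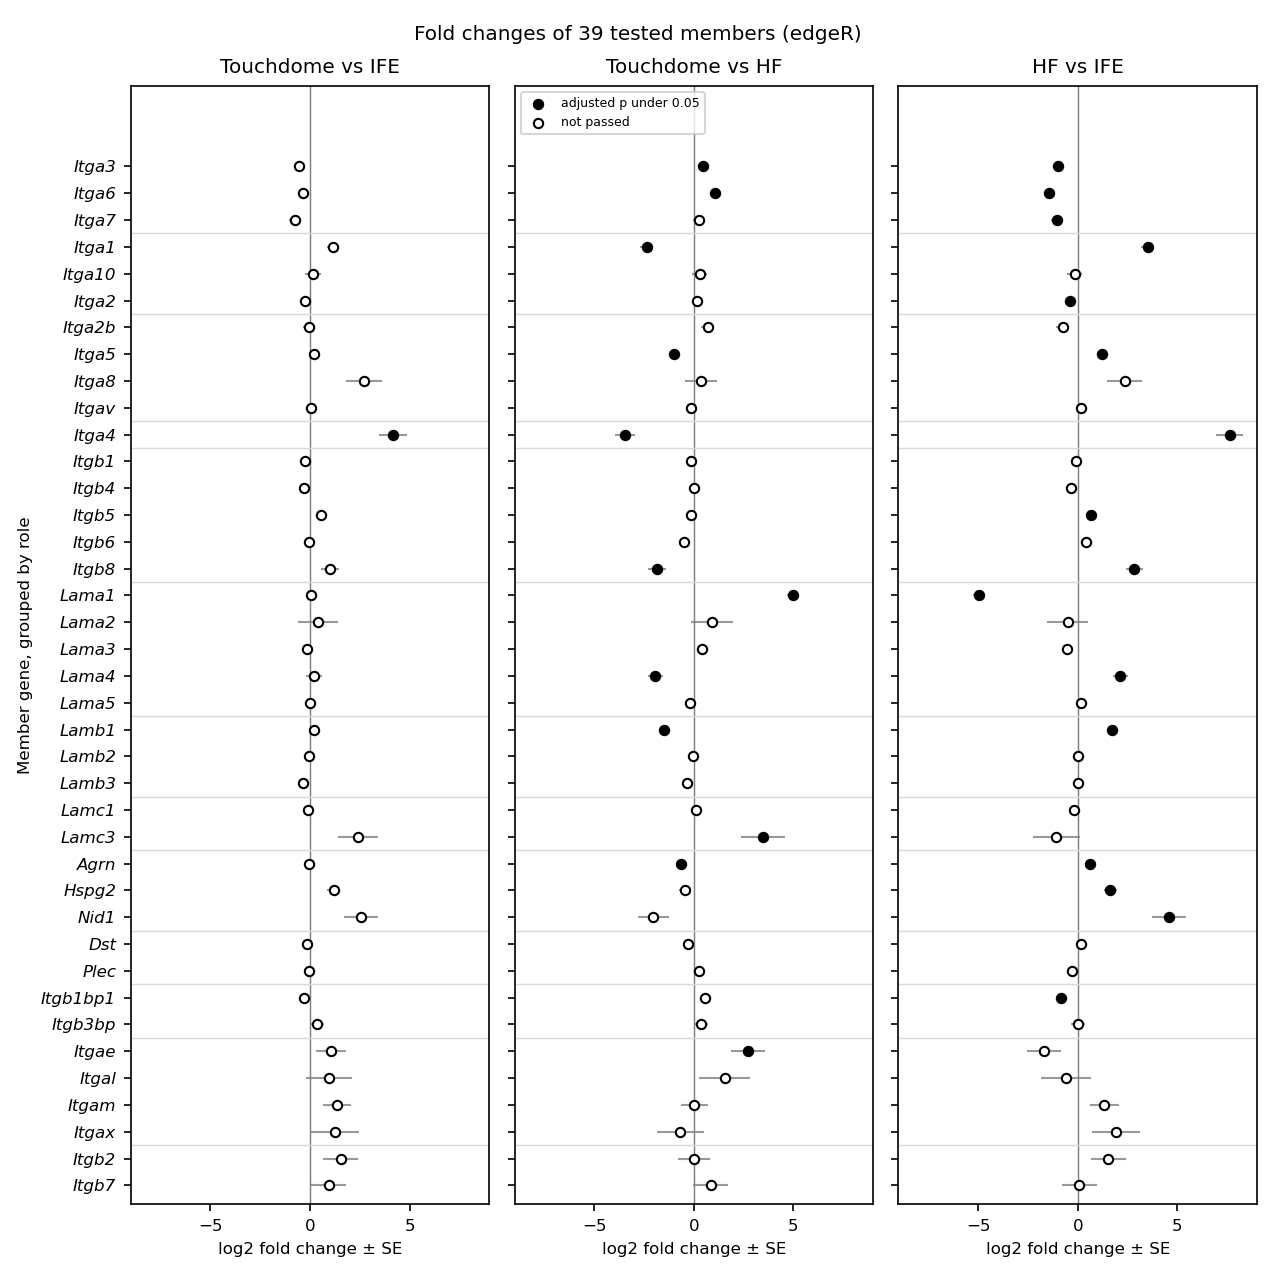
Log2 fold change (x axis, ± SE) of 39 of the 40 tested members, ordered by role on the y axis, in each of the 3 comparisons, from the edgeR fit over all 9 libraries; filled points had an adjusted p under 0.05. Only Itga4 is filled for Touchdome against IFE, while 12 members are filled for Touchdome against HF and 16 for HF against IFE, with Lama1 and Itga4 farthest from 0.

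**Figure D2:**
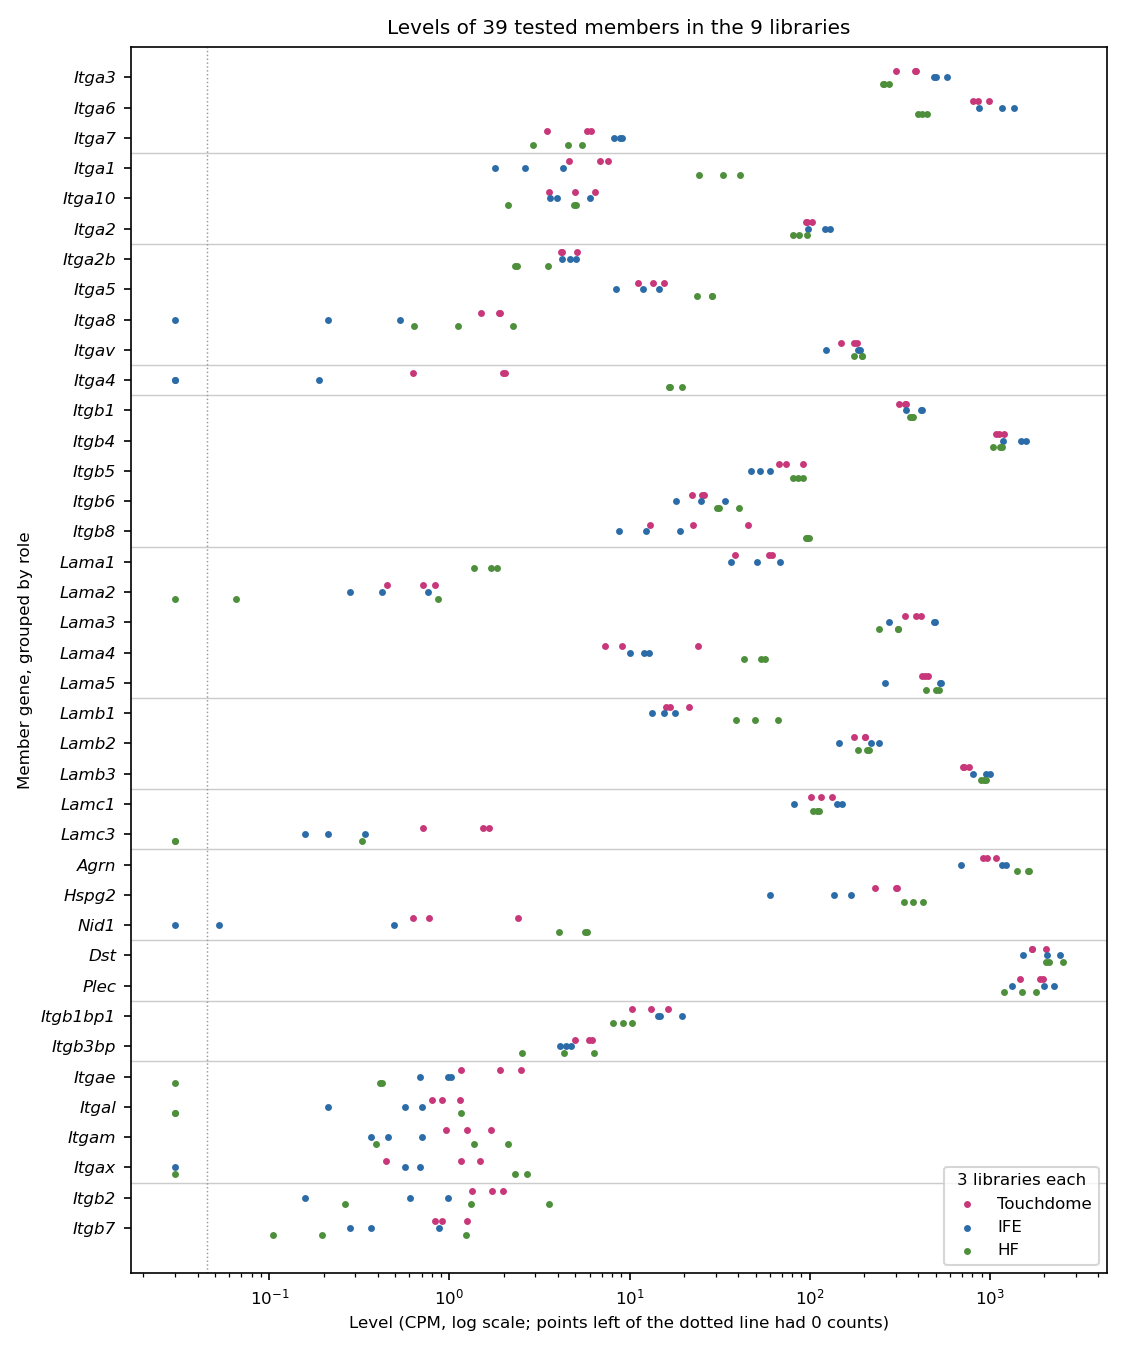
Level of 39 of the 40 tested members (CPM, log axis) in each of the 9 libraries, with members ordered by role on the y axis and 1 point per library; points left of the dotted line had 0 counts. Dst, Plec, Itgb4, Agrn, Lamb3 and, outside HF, Itga6 lie highest. The leukocyte integrins lie near 1 CPM, and the HF points of Lama1 lie far to the left of the other groups.

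The 7 members higher in HF than in both other groups were Agrn, Itga1, Itga4, Itga5, Itgb8, Lama4 and Lamb1, and the 3 lower in HF than in both were Itga3, Itga6 and Lama1. RefSeq promoter windows (GRCm38.p6, the 250 bases before the annotated start) matched 30 of the 46 members, with 35 windows. Those of Itga1, Itga4, Itga5, Itgb8 and Lamb1 are printed because these genes rose together in HF and have 1 window each; Agrn has more than 1 and Lama4 has none in the table. They lie on the build GRCm38.p6 at chr13:115101965-115102214 (minus strand) for Itga1, chr2:79255176-79255425 (plus) for Itga4, chr15:103366792-103367041 (minus) for Itga5, chr12:119238277-119238526 (minus) for Itgb8 and chr12:31265043-31265292 (plus) for Lamb1, and are written 5′ to 3′ on the gene's strand. Capitals mark matches to any of 6 motifs searched on both strands.
Itga1: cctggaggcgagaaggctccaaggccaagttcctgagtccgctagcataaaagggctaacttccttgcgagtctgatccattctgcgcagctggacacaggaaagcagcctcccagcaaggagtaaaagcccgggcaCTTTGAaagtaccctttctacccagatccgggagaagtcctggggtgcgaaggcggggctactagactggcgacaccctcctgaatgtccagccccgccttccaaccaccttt
Itga4: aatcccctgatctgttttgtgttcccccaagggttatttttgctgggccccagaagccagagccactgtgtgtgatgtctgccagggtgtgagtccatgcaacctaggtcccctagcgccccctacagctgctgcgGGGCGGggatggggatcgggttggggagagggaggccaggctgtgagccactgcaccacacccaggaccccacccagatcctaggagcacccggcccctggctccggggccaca
Itga5: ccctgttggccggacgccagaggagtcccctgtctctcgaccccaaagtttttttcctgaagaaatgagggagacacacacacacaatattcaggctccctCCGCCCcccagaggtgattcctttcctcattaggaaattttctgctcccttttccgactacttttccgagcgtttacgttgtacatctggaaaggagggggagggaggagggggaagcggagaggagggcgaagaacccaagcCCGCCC
Itgb8: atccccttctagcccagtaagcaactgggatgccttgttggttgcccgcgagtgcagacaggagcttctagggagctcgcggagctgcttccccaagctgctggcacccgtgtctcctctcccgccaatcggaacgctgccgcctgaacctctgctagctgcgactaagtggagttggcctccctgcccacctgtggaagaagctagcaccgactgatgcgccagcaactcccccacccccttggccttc
Lamb1: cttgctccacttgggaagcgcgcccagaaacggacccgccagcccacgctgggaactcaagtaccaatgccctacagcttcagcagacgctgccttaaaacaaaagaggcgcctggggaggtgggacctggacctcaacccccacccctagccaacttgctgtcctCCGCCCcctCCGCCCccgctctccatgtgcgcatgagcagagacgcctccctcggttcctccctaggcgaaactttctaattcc

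The AP-1 motif TGANTCA occurred in 6.75% of all 32851 windows of the table and the TEAD motif CATTCC in 12.6%. The TCF/LEF motif CTTTGA occurred in 13.8%, the GLI motif GACCACCCA in 0.225%, the TATA box TATAAA in 12.4% and the GC box GGGCGG in 32.7%. Itga1 held 1 match, to the TCF/LEF motif; Itga4 held 1 GC box, Itga5 and Lamb1 held 2 each, and Itgb8 held no match. No match overlapped another in these windows. Over the 35 member windows, the GC box occurred in 14, the TCF/LEF motif in 5, the TEAD motif in 4, the AP-1 motif in 1 and the others in 0. GC content was 57.6% in Itga1, 64% in Itga4, 55.6% in Itga5, 62.4% in Itgb8 and 62% in Lamb1, against a median of 52.4% over all windows. A match describes letters only, and no factor binding was measured.

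Among laminin α chains, Lama1 was lower and Lama4 higher in HF than in both other groups. Lama1 (ENSMUSG00000032796), which encodes the α1 chain of the first embryonic laminin, stood at 59.3, 61.7 and 38.7 CPM for Touchdome, 68.2, 36.4 and 51.3 for IFE and 1.83, 1.37 and 1.70 for HF, in the order of replicates 1 to 3, as in all such values below. Every HF library was far below every Touchdome and IFE library, which overlapped. Lama1 was 31.7-fold higher in Touchdome than in HF, a log2 fold change of 4.99 ± 0.30 (adjusted p = 5.36e-07, edgeR), and 31.0-fold higher in IFE than in HF (-4.95 ± 0.30 for HF against IFE, adjusted p = 3.39e-07, edgeR). Between Touchdome and IFE the log2 difference was 0.03 ± 0.23, with a 95% interval of -0.46 to 0.53. Both HF calls held in all alternatives run.

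Lama4 (ENSMUSG00000019846), the α4 chain known from vessel and mesenchymal basement membranes, stood at 9.08, 7.33 and 23.8 CPM for Touchdome, 12.8, 9.99 and 12.0 for IFE and 43.1, 56.8 and 53.6 for HF. HF lay above both other groups, and Touchdome replicate 3 was above all IFE libraries while the other Touchdome libraries were below them. The log2 fold change was 2.13 ± 0.38 (adjusted p = 0.00205, edgeR) for HF against IFE and -1.93 ± 0.38 (adjusted p = 0.005, edgeR) for Touchdome against HF. Without Touchdome replicate 3 the latter was -2.63 ± 0.21 (adjusted p = 1.65e-06, edgeR).

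Markers of some other cell types were higher in HF and those of others lower. Summed fibroblast markers (7 genes, none at 0 in all libraries) were 62.2 to 87.0 CPM in HF, 21.7 to 74.6 CPM in Touchdome, which overlaps HF, and 0.579 to 2.92 CPM in IFE. The 6 smooth muscle and pericyte markers summed to 577 to 634 CPM, 109.6 to 211 CPM and 67.7 to 119.6 CPM in the same order, with Des at 0 in all libraries, and the 6 melanocyte markers to 98.6 to 129 CPM, 16 to 50.4 CPM and 9.92 to 14.3 CPM. The 6 sebaceous markers summed to 1018 to 1910 CPM, 523 to 635 CPM and 423 to 678 CPM, and 5 of them were called higher in HF than in each other group. Endothelial markers (6 genes) went the other way, at 0 to 1.69 CPM, 3.93 to 7.31 CPM and 1.69 to 2.47 CPM, as did the sum of the 6 Schwann cell markers at 25.5 to 33.3 CPM, 60.2 to 64.2 CPM and 60.6 to 72.3 CPM. The Schwann cell list was split: of 3 genes tested, Mbp was called lower and Sox10 higher in HF than in IFE. Their median log2 fold change was 1.02. The fibroblast, smooth muscle, melanocyte and sebaceous sums were higher in HF than in IFE. So were Lama4 and the other members called higher in that comparison (Agrn, Hspg2, Itga1, Itga4, Itga5, Itgb5, Itgb8, Lamb1 and Nid1). Between Touchdome and IFE the fibroblast sums did not overlap, and of these members only Itga4 was called. The part of such cells in those results was not tested.

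Lama3 and Lama5 gave most of the laminin α RNA in all groups. Lama3, the α3 chain of the hemidesmosomal laminin, stood at 416, 337 and 388 CPM for Touchdome, 497, 276 and 488 for IFE and 244, 308 and 309.7 for HF, and Lama5, the α5 chain found under most epithelia, at 454, 417 and 437 CPM for Touchdome, 529, 261 and 534 for IFE and 502, 443 and 524 for HF. Groups overlapped for Lama5 in each comparison, and no comparison passed for either gene: HF against IFE gave -0.55 ± 0.20 (adjusted p = 0.0555, edgeR) for Lama3 and 0.15 ± 0.22 (adjusted p = 0.649, edgeR) for Lama5. Without IFE replicate 2, Lama3 passed at -0.78 ± 0.13 (adjusted p = 0.000621, edgeR) for HF against IFE and at 0.41 ± 0.12 (0.021) for Touchdome against HF. Lama3 passed in 3 of 17 alternatives for HF against IFE, among them DESeq2 (-0.54 ± 0.21, adjusted p = 0.0273). For Touchdome against HF it passed in 2 of 17, the other being the 2 groups alone (0.41 ± 0.12, adjusted p = 0.0316, edgeR). Per length, Lama3 was at 104 ± 9.74 TPM for Touchdome, 103 ± 30.2 for IFE and 89.1 ± 10.8 for HF, and Lama5 at 63.7 ± 0.564 TPM for Touchdome, 72.9 ± 2.45 for IFE and 75.4 ± 7.44 for HF (SD, n = 3 each). Lama2, the α2 chain of muscle and nerve, had 25, 32 and 20 counts over the Touchdome, IFE and HF groups, 0 to 0.868 CPM per library.

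As a share of the summed TPM of the 5 laminin α chains, a description with no test, Lama3 took 57.2 ± 2.11% in Touchdome, 53.5 ± 7.51% in IFE and 48.1 ± 3.32% in HF (SD, n = 3 each). Lama4 took 2.39 ± 1.53%, 2.33 ± 0.633% and 10.6 ± 1.55%, and Lama1 took 5.26 ± 1.35%, 4.61 ± 0.626% and 0.379 ± 0.403%. Thus the third most abundant α chain was Lama1 in the Touchdome and IFE means and Lama4 in HF. The order of Lama3 and Lama5 turned with the unit: on CPM, which is not per length, Lama5 took 49.4% in Touchdome, 47.2% in IFE and 59.1% in HF, and Lama3 43.0%, 45.7% and 34.5%.

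Among laminin β and γ chains, Lamb1 was higher in HF than in both other groups. Lamb1 (ENSMUSG00000002900), the β1 chain that pairs with α chains in many tissues, stood at 16.7, 15.9 and 21.4 CPM for Touchdome, 17.8, 13.4 and 15.4 for IFE and 39.2, 50.0 and 66.4 for HF. All HF libraries were above all others, with 1.73 ± 0.20 (adjusted p = 2.86e-05, edgeR) for HF against IFE and -1.52 ± 0.20 (adjusted p = 0.000132, edgeR) for Touchdome against HF. On log2(TPM + 1) with limma the calls were lost (0.92, adjusted p = 0.0941, and -1.07, adjusted p = 0.0686), where IFE replicates held 9.70, 11.1 and 4.20 TPM and HF replicates 12.1, 15.5 and 20.2 TPM.

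Lamb3, the β3 chain of the hemidesmosomal laminin, stood at 716, 763 and 706 CPM for Touchdome, 946, 809.7 and 1005 for IFE and 930.3, 949.7 and 890.4 for HF. Touchdome was below both other groups without overlap, at -0.34 ± 0.12 (adjusted p = 0.281, edgeR) against IFE and -0.34 ± 0.12 (adjusted p = 0.0534, edgeR) against HF, which missed the threshold. The second passed in 6 of 17 alternatives, among them DESeq2 (-0.35 ± 0.11, adjusted p = 0.00829) and the 2 groups alone (-0.34 ± 0.10, adjusted p = 0.0251, edgeR). Another was the fit without IFE replicate 2 (-0.34 ± 0.09, adjusted p = 0.0143, edgeR). Lamb2 (β2) stood at 176, 204 and 202 CPM for Touchdome, 219.6, 146 and 242 for IFE and 212, 186 and 207 for HF, with overlap in all comparisons. The γ1 chain Lamc1 stood at 116, 102 and 133 CPM for Touchdome, 142, 82.2 and 151 for IFE and 109, 112 and 104 for HF, with overlap in all comparisons and no call. Without IFE replicate 2, Lamc1 was called lower in HF than in IFE at -0.44 ± 0.12 (adjusted p = 0.0145, edgeR). Per length, Lamb3 stood at 307 ± 15.8 TPM for Touchdome, 353 ± 55.0 for IFE and 409 ± 16.8 for HF (SD, n = 3 each). Lamc3 (γ3), a rare chain, had 52, 15 and 5 counts over the 3 groups and stood at 1.53, 0.715 and 1.66 CPM for Touchdome, 0.158, 0.211 and 0.341 for IFE and 0, 0 and 0.328 for HF. Touchdome, where it was highest, held most of the counts by which it passed the filter. It was called higher in Touchdome than in HF at 3.47 ± 1.12 (adjusted p = 0.0387, edgeR), on few counts, and not with any Touchdome library left out (adjusted p = 0.109, 0.0572 and 0.103 without replicates 1, 2 and 3), nor without HF replicate 1 or 2 (0.127 and 0.119) or IFE replicate 1 or 3 (0.0555 and 0.0642).

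**Figure D3:**
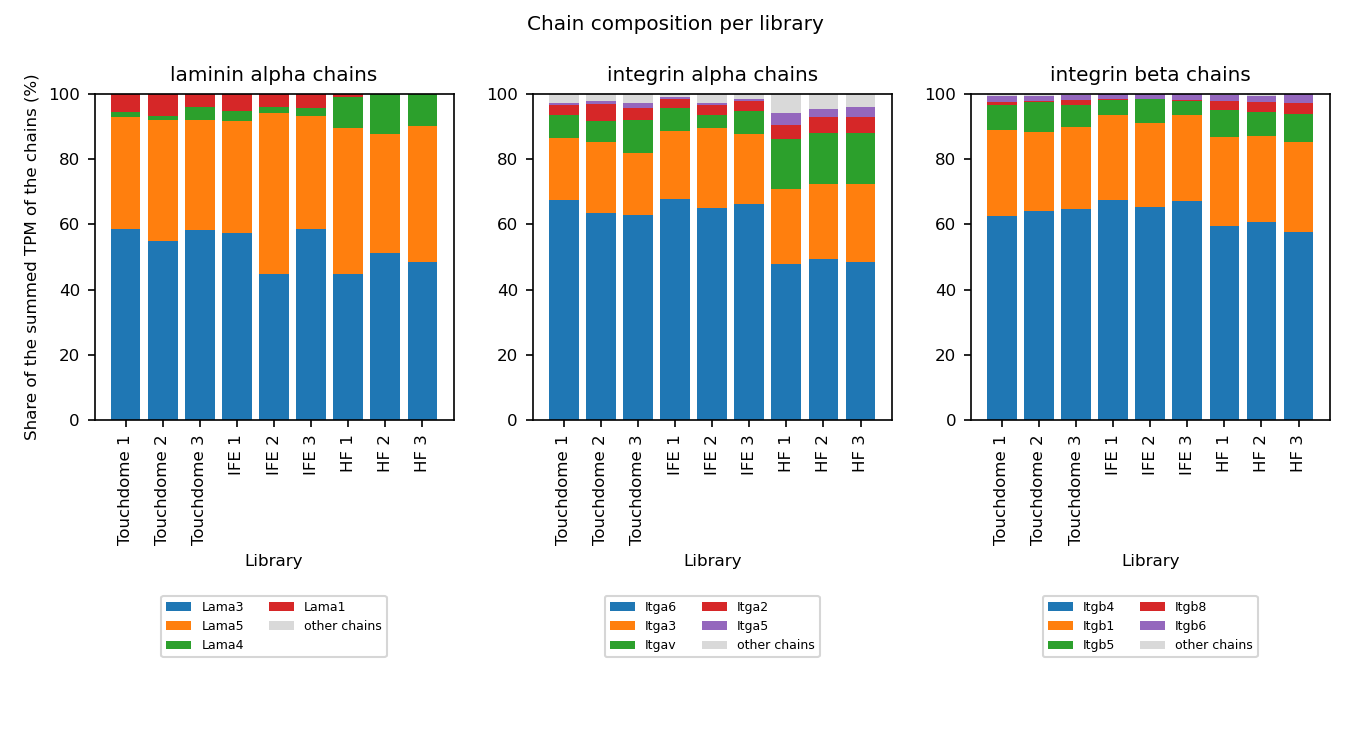
Share of the summed TPM (y axis, %) taken by each laminin α, integrin α and integrin β chain in each of the 9 libraries (x axis), stacked to 100. Lama1 (red) nearly vanishes and Lama4 (green) widens in HF, and Itga6 (blue) narrows from 62.96% or more in Touchdome and IFE to 49.5% or less in HF while Itgav (green) widens.

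Of the tested linkers of the basement membrane, Agrn, Hspg2 and Nid1 were called higher in HF than in IFE. Nid1 passed the filter on counts mostly from HF, where it was highest, so its direction is no independent support. Hspg2 (ENSMUSG00000028763), which encodes the proteoglycan perlecan, stood at 299.5, 230.3 and 306 CPM for Touchdome, 136, 59.8 and 169 for IFE and 373, 425 and 336 for HF. The 3 groups did not overlap, with IFE lowest and HF highest. HF exceeded IFE 3.10-fold, a log2 fold change of 1.63 ± 0.33 (adjusted p = 0.00453, edgeR). Touchdome exceeded IFE 2.29-fold, at 1.19 ± 0.32 (adjusted p = 0.165, edgeR), which missed the threshold. It passed in 5 of 18 alternatives, among them DESeq2 (1.20 ± 0.28, adjusted p = 0.000955). Limma called it on log2(TPM + 1) (1.29 ± 0.17, adjusted p = 0.0102) and on log2(TPM + 0.1) (1.33 ± 0.18, adjusted p = 0.00829). It also passed with the replicate number as a block and only these 2 groups, a fit added after seeing the data (1.32 ± 0.18, adjusted p = 0.00259, edgeR). The pairing by number was read from these same data and is not in the labels. With the block over all 9 libraries the difference did not pass (1.25 ± 0.30, adjusted p = 0.107, edgeR). Without IFE replicate 2, the lowest, it was 0.87 ± 0.15 (adjusted p = 0.02, edgeR). Touchdome against HF was -0.44 ± 0.32 (adjusted p = 0.381, edgeR), and -0.44 ± 0.14 (adjusted p = 0.0302) without that library.

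Agrn (ENSMUSG00000041936), which encodes agrin, was among the most abundant members at 964, 919.6 and 1078 CPM for Touchdome, 1171, 687 and 1234 for IFE and 1636, 1416 and 1656 for HF. HF was above every other library, at 0.61 ± 0.19 (adjusted p = 0.0267, edgeR) against IFE, and Touchdome against HF was -0.67 ± 0.19 (adjusted p = 0.0214, edgeR). Both calls were lost with single libraries left out, HF against IFE without HF replicate 1 or 3 (adjusted p = 0.0811 and 0.0795) and Touchdome against HF without Touchdome replicate 1 or 2 or HF replicate 1 or 3 (0.0812, 0.084, 0.0695 and 0.0697).

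Nid1, which encodes nidogen-1, a bridge between laminin and collagen IV, stood at 0.767, 0.626 and 2.41 CPM for Touchdome, 0.0526, 0 and 0.492 for IFE and 4.07, 5.69 and 5.77 for HF, from 48, 14 and 231 counts. HF exceeded both groups, and Touchdome replicate 3 was the highest of its group. HF against IFE was 4.58 ± 0.87 (adjusted p = 0.00134, edgeR), on a low IFE level, while Touchdome against IFE was 2.55 ± 0.86 (adjusted p = 0.255, edgeR) and Touchdome against HF -2.03 ± 0.76 (adjusted p = 0.0708, edgeR). The last passed in 8 of 17 alternatives, among them DESeq2 (-2.04 ± 0.72, adjusted p = 0.0198) and the 2 groups alone (-2.02 ± 0.54, adjusted p = 0.0178, edgeR). Without Touchdome replicate 3 it was -2.87 ± 0.86 (adjusted p = 0.0297, edgeR). Without IFE replicate 2 it was -2.03 ± 0.64 (0.0329) and without IFE replicate 3 it was -2.02 ± 0.58 (0.0266). Nid2, encoding nidogen-2, had 7 counts in all, all in Touchdome, and was not tested.

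The laminin-binding integrin α chains were lower in HF, all 3 of them against IFE. Itga6 (ENSMUSG00000027111), the α6 chain of hemidesmosomes, stood at 988, 864 and 806 CPM for Touchdome, 1367, 872 and 1163 for IFE and 418, 449.7 and 399 for HF. All HF libraries were lower, 2.69-fold against IFE and 2.10-fold against Touchdome on the fitted means. Because the sort took integrin α6+ cells in each group, its log2 fold changes of -1.43 ± 0.16 for HF against IFE and 1.07 ± 0.16 for Touchdome against HF (adjusted p = 2.37e-05 and 0.000346, edgeR) describe cells within that gate. The sums of basal and of suprabasal keratinocyte markers were also lower in HF than in each other group. Of the basal markers, whose sums are given above, Krt14 and Krt5 were called lower in HF than in each other group and Krt15 higher in HF than in Touchdome. The 6 suprabasal markers summed to 1331 to 1582 CPM in HF, 6599 to 8919 CPM in Touchdome and 4836 to 6222 CPM in IFE. Krt1, Dsg1a, Krt10 and Krtdap were called lower and Dsc1 higher in HF than in IFE. The suprabasal sum was highest in Touchdome, whereas the laminin-binding chains had their highest mean CPM in IFE. The part of basal and suprabasal cells in these results was not tested.

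Itga3 (ENSMUSG00000001507), the α3 chain that binds laminins in focal contacts, stood at 382, 388 and 300.0 CPM for Touchdome, 581, 492 and 505 for IFE and 277, 258 and 254 for HF. The groups did not overlap, with IFE highest, Touchdome between and HF lowest. HF against IFE was -1.0 ± 0.13 (adjusted p = 6.53e-05, edgeR), or 2.00-fold lower, and held in every alternative run. Touchdome against IFE was -0.56 ± 0.13 (adjusted p = 0.0571, edgeR). It passed in 5 of 18 alternatives, among them DESeq2 (-0.56 ± 0.13, adjusted p = 0.00171) and no filter (-0.57 ± 0.13, adjusted p = 0.00915, edgeR). With the replicate number as a block, a pairing read from these same data, it passed at -0.56 ± 0.12 (adjusted p = 0.0298, edgeR). It also passed with the block and only these 2 groups at -0.55 ± 0.13 (0.0362), and without IFE replicate 2 at -0.61 ± 0.13 (0.0423). Touchdome against HF was 0.44 ± 0.13 (adjusted p = 0.0232, edgeR), and the call was lost without Touchdome replicate 1 or 2 (adjusted p = 0.0792 and 0.096) or any HF library (0.05, 0.0745 and 0.0823 without replicates 1, 2 and 3).

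Itga7, the α7 chain best known from muscle, stood lower, at 6.07, 3.49 and 5.81 CPM for Touchdome, 8.89, 8.23 and 9.09 for IFE and 2.92, 4.53 and 5.44 for HF. IFE was above all other libraries in CPM, and HF against IFE was -1.03 ± 0.31 (adjusted p = 0.021, edgeR). The call was lost without IFE replicate 1 or 3 or HF replicate 1 (adjusted p = 0.0509, 0.0622 and 0.0878) and with limma on both TPM scales (-0.53, 0.197, and -0.73, 0.193). In TPM, Touchdome (3.65, 2.84 and 3.99) overlapped IFE (3.87, 3.24 and 3.64), and HF stood at 1.32, 2.03 and 3.51. The β chains that partner these integrins gave no call. Itgb4, the partner of α6 in hemidesmosomes, stood at 1125, 1202 and 1079.5 CPM for Touchdome, 1582, 1180.4 and 1491 for IFE and 1169.8, 1136 and 1046 for HF, with -0.34 ± 0.13 (adjusted p = 0.0685, edgeR) for HF against IFE and an interval of -0.27 to 0.31 for Touchdome against HF. Itgb4 passed for HF against IFE in 3 of 17 alternatives. These were without IFE replicate 2 (-0.46 ± 0.11, adjusted p = 0.00556, edgeR), DESeq2 (-0.34 ± 0.13, adjusted p = 0.0317) and no filter (-0.36 ± 0.13, adjusted p = 0.0446, edgeR). Itgb1, the partner of most other α chains, stood at 344, 314 and 338 CPM for Touchdome, 416, 341 and 419 for IFE and 369, 375 and 359 for HF, and all 3 comparisons gave sizes of 0.24 or less on the log2 scale.

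Of the collagen-binding chains, Itga1 was higher and Itga2 lower in HF than in IFE. Itga1 (ENSMUSG00000042284), the α1 chain of a collagen IV receptor, stood at 4.60, 6.88 and 7.56 CPM for Touchdome, 1.79, 4.29 and 2.61 for IFE and 33.0, 40.9 and 24.2 for HF. The 3 groups did not overlap, IFE being lowest and HF highest. HF exceeded IFE 11.4-fold, a log2 fold change of 3.52 ± 0.32 (adjusted p = 5.54e-06, edgeR), and Touchdome against HF was -2.37 ± 0.31 (adjusted p = 0.000125, edgeR). Touchdome against IFE was 1.15 ± 0.32 (adjusted p = 0.142, edgeR). It passed in 4 of 18 alternatives, among them DESeq2 (1.15 ± 0.34, adjusted p = 0.0244) and no filter (1.14 ± 0.28, adjusted p = 0.0372, edgeR). With the replicate number as a block it passed at 1.18 ± 0.27 (adjusted p = 0.0479, edgeR), and without IFE replicate 2 at 1.50 ± 0.31 (0.0397). With the block and only these 2 groups it did not (1.20 ± 0.32, 0.0634).

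Itga2, the α2 chain of the main collagen I receptor of keratinocytes, was the most abundant of this class, at 95.6, 96.4 and 103 CPM for Touchdome, 129, 98.1 and 122 for IFE and 80.8, 96.4 and 87.2 for HF. HF was below IFE without overlap, at -0.40 ± 0.12 (adjusted p = 0.023, edgeR), a change of 1.32-fold that was lost without IFE replicate 1 or 3 (adjusted p = 0.0838 and 0.0771), without HF replicate 1 or 3 (0.103 and 0.0641) and with limma on TPM (0.584). Itga10, a cartilage collagen receptor, stood at 6.39, 5.01 and 3.57 CPM for Touchdome, 6.05, 3.94 and 3.63 for IFE and 5.07, 2.11 and 4.91 for HF, with overlap throughout. Itga11 had 8 counts, all in Touchdome, and was not tested.

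Of the integrin α chains that recognise the sequence motif RGD in fibronectin and related ligands, Itga5 alone was called. Itga5 (ENSMUSG00000000555), the α5 chain of the fibronectin receptor, stood at 13.4, 11.2 and 15.5 CPM for Touchdome, 11.8, 8.44 and 14.6 for IFE and 28.7, 23.6 and 28.5 for HF. HF was 2.31-fold above IFE (1.21 ± 0.21, adjusted p = 0.000628, edgeR) and Touchdome was 2.02-fold below HF (-1.01 ± 0.21, adjusted p = 0.00319, edgeR). Itgav, the αv chain of receptors that activate TGF-β, was the most abundant of the class at 176, 149.6 and 183 CPM for Touchdome, 186, 123 and 191 for IFE and 176, 194 and 194 for HF, with overlap in every comparison. Itga2b, the platelet αIIb chain, stood at 2.32 to 5.10 CPM, with every HF library below the others and no call (0.70 ± 0.32 for Touchdome against HF, adjusted p = 0.137, edgeR). The 5 platelet and red cell markers summed to 0.581 to 2.32 CPM in Touchdome, 0 to 1.13 CPM in IFE and 0 to 1.83 CPM in HF. Of these, Pf4, Ppbp and Hbb-bs had 0 counts in all libraries. Itga8, known from smooth muscle, stood at 1.92, 1.88 and 1.49 CPM for Touchdome, 0, 0.211 and 0.530 for IFE and 2.24, 0.632 and 1.11 for HF, with 2.73 ± 0.90 (adjusted p = 0.237, edgeR) for Touchdome against IFE and 2.35 ± 0.89 (adjusted p = 0.0607, edgeR) for HF against IFE, from 17 counts in IFE. Without IFE replicate 3 the latter was 3.70 ± 1.15 (adjusted p = 0.0313, edgeR). With DESeq2 both passed, at 2.78 ± 0.87 (adjusted p = 0.042) and 2.40 ± 0.87 (adjusted p = 0.0198). With no filter the latter passed at 2.34 ± 0.86 (adjusted p = 0.0444, edgeR).

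Itga4 (ENSMUSG00000027009), the α4 chain that binds VCAM-1 and fibronectin, was the member with the greatest fold change, at 2.05, 0.626 and 1.99 CPM for Touchdome, 0, 0 and 0.189 for IFE and 16.7, 19.5 and 16.6 for HF. The groups were fully apart: IFE replicates 1 and 2 had 0 counts, which allows up to 0.158 and 0.211 CPM, and IFE as a whole had 5 counts against 63 in Touchdome and 804 in HF. Touchdome was called higher than IFE at 4.16 ± 0.72 (adjusted p = 0.0132, edgeR) and lower than HF at -3.47 ± 0.49 (adjusted p = 0.000251, edgeR), and HF higher than IFE at 7.63 ± 0.67 (adjusted p = 3.85e-06, edgeR). The size against IFE rests on 5 counts: it was 7.56 without IFE replicate 3, which held all of them, and 3.97 without Touchdome replicate 3 and 3.78 without IFE replicate 2. On log2(TPM + 1), where Touchdome stood at 0.340, 0.110 and 0.340 TPM, Touchdome against IFE was 0.32 ± 0.26 (adjusted p = 0.728, limma). With the replicate block it was 4.19 ± 0.75 (adjusted p = 0.0158, edgeR). Itga4 passed the filter on counts mostly from HF, where it was highest, and did not pass it with Touchdome and IFE alone. Beside the higher Itga4 of Touchdome over IFE stood higher sums of fibroblast markers (21.7 to 74.6 against 0.579 to 2.92 CPM, with Col1a2 called). Merkel cell markers (9.53, 1.34 and 1.33 CPM in Touchdome against 0.114 to 0.316 CPM in IFE, with Krt8 called) were higher too. So were endothelial markers (3.93 to 7.31 against 1.69 to 2.47 CPM) and leukocyte integrins (6.70 to 8.63 against 2.47 to 4.09 CPM), while the basal keratinocyte sum was lower. The part of such cells in the Itga4 result was not tested. Itga9, the related α9 chain, had 3 counts, all in Touchdome, and was not tested.

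Of the other β chains, Itgb8 and Itgb5 were called. Itgb8 (ENSMUSG00000025321), which pairs with αv and binds latent TGF-β, stood at 22.6, 13.1 and 45.6 CPM for Touchdome, 12.3, 8.72 and 19.0 for IFE and 97.0, 94.9 and 98.8 for HF. HF was above all others, the 3 HF libraries lay close together, and Touchdome replicate 3 was the highest library outside HF. HF against IFE was 2.85 ± 0.45 (adjusted p = 0.00171, edgeR) and Touchdome against HF -1.84 ± 0.44 (adjusted p = 0.0169, edgeR). The second was -2.43 ± 0.32 (adjusted p = 0.000362, edgeR) without Touchdome replicate 3, and was lost without Touchdome replicate 1 (0.0646) or HF replicate 3 (0.0505). Touchdome against IFE was 1.01 ± 0.44 (adjusted p = 0.471, edgeR), 0.95 ± 0.28 (0.164) with the block over all 9 libraries and 0.94 ± 0.18 (0.00865) with the block and only these 2 groups.

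Itgb5, which also pairs with αv, stood at 73.5, 91.8 and 67.8 CPM for Touchdome, 53.2, 60.0 and 47.2 for IFE and 91.4, 80.4 and 86.6 for HF. IFE was lowest with no overlap, and HF against IFE was 0.69 ± 0.14 (adjusted p = 0.00174, edgeR), with 0.54 ± 0.14 (adjusted p = 0.0882, edgeR) for Touchdome against IFE. The latter passed in 3 of 18 alternatives. These were DESeq2 (0.54 ± 0.16, adjusted p = 0.0208), no filter (0.53 ± 0.14, adjusted p = 0.0387, edgeR) and the block with only these 2 groups (0.55 ± 0.11, adjusted p = 0.0173, edgeR). The block over all 9 libraries did not call it (0.0545). Itgb6, the epithelial αv partner, stood at 18.0 to 40.2 CPM over all libraries and passed in no comparison, though it did for HF against IFE without IFE replicate 1 (0.66 ± 0.19, adjusted p = 0.0196, edgeR) and for Touchdome against HF without IFE replicate 2 (-0.48 ± 0.16, 0.0417). Itgb3 had 1, 30 and 9 counts over the Touchdome, IFE and HF groups and was not tested.

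Within the summed TPM of the integrin α chains, Itga6 took 64.6 ± 2.48% in Touchdome, 66.3 ± 1.46% in IFE and 48.6 ± 0.854% in HF, and Itgav 7.90 ± 1.89%, 6.02 ± 1.61% and 15.6 ± 0.175% (SD, n = 3 each). Itga3 held 19.9 ± 1.58%, 22.2 ± 1.94% and 23.2 ± 0.478%. The sum over α chains was 699 ± 51.3 TPM in Touchdome, 816 ± 190.4 TPM in IFE and 471 ± 22.8 TPM in HF, so the greater share of Itgav in HF went with a lower total. Of the β chains, Itgb4 took 63.9 ± 1.14%, 66.7 ± 1.16% and 59.4 ± 1.53%, and Itgb8 0.906 ± 0.563%, 0.376 ± 0.133% and 3.07 ± 0.150%. The shares are shown without a test.

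The plakins were the most abundant members by count. Dst, which encodes dystonin, whose epithelial form is BPAG1e, stood at 2048, 1722 and 1707 CPM for Touchdome, 2449.8, 1518 and 2077 for IFE and 2045, 2534 and 2135 for HF, and Plec, which encodes plectin, at 1968, 1898 and 1474 CPM for Touchdome, 2256, 1331 and 2009.7 for IFE and 1513, 1799 and 1198 for HF. All groups overlapped for both genes, with a 95% interval of -0.52 to 0.24 for Dst and -0.52 to 0.38 for Plec between Touchdome and IFE on the log2 scale. Both transcripts are long, so CPM overstates them beside other genes: per length Dst was at 364 ± 28.7 TPM for Touchdome, 376 ± 89.1 for IFE and 467 ± 40.0 for HF and Itgb4 at 391 ± 18.7 TPM for Touchdome, 433 ± 94.8 for IFE and 412 ± 29.2 for HF (SD, n = 3 each). Dst has neuronal and muscle forms besides, which a count per gene does not separate.

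Of the proteins named for binding integrins, Itgb1bp1, encoding ICAP-1, which binds the β1 tail and restrains integrin activation, stood at 16.2, 13.1 and 10.4 CPM for Touchdome, 14.3, 19.6 and 14.7 for IFE and 8.04, 9.17 and 10.3 for HF. HF was below IFE, at -0.82 ± 0.22 (adjusted p = 0.0106, edgeR), and the call held in every alternative run. Touchdome against HF was 0.54 ± 0.22 (adjusted p = 0.0955, edgeR), and 0.69 ± 0.22 (0.0447) without Touchdome replicate 3. Itgb3bp, a centromere protein by its other name CENP-R, stood at 2.53 to 6.35 CPM with no call. Itgb1bp2, encoding melusin of striated muscle, had 0 counts in Touchdome, 24 in IFE and 4 in HF and was not tested.

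Integrin chains of leukocytes were present at low levels in most libraries. The 7 genes of this class (Itgae, Itgal, Itgam, Itgax, Itgb2, Itgb2l and Itgb7) summed to 8.63, 6.70 and 8.14 CPM in Touchdome, 2.47, 3.66 and 4.09 CPM in IFE and 7.04, 9.70 and 0.852 CPM in HF. Touchdome was above IFE in this sum, and HF replicate 3 was far below the other HF libraries. The 7 Langerhans and myeloid markers summed to 138, 110.1 and 239.7 CPM in Touchdome, 89.9, 112.6 and 188 CPM in IFE and 333, 309.5 and 49.6 CPM in HF, also with HF replicate 3 lowest, and the 6 T cell markers to 6.61 to 7.86 CPM, 3.29 to 7.18 CPM and 1.44 to 4 CPM. No marker of either list was at 0 in all libraries, and the part of such cells in these values was not tested.

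Itgam, the αM chain of myeloid cells, stood at 0.959, 1.70 and 1.25 CPM for Touchdome, 0.368, 0.703 and 0.454 for IFE and 1.37, 2.11 and 0.393 for HF, and Itgb2, its β2 partner, at 1.73, 1.34 and 1.99 CPM for Touchdome, 0.158, 0.985 and 0.606 for IFE and 1.33, 3.58 and 0.262 for HF. Touchdome was above IFE without overlap for both, at 1.35 ± 0.72 (adjusted p = 0.57, edgeR) and 1.54 ± 0.87 (adjusted p = 0.6, edgeR). Itgax, the αX chain of dendritic cells, stood at 1.47, 0.447 and 1.16 CPM for Touchdome, 0.684, 0 and 0.568 for IFE and 2.70, 2.32 and 0 for HF, and Itgb7, partner of αE and α4, at 0.831, 1.25 and 0.913 CPM for Touchdome, 0.368, 0.281 and 0.871 for IFE and 1.23, 0.105 and 0.197 for HF, with overlap in all comparisons. Itgae, the αE chain that binds E-cadherin and marks intraepithelial T cells and some dendritic cells, was called higher in Touchdome than in HF at 2.73 ± 0.86 (adjusted p = 0.0348, edgeR), from 75, 54 and 13 counts over Touchdome, IFE and HF. The call was lost without any single Touchdome or HF library (adjusted p = 0.0502 to 0.119) and without IFE replicate 1 or 3 (0.0506 and 0.0616). Itgal, the αL chain of lymphocytes, was at 0 in HF replicates 1 and 3, and was called lower in HF without HF replicate 2, the one HF library that held its 11 counts (adjusted p = 0.0126 against Touchdome and 0.0207 against IFE, edgeR). Itgb2l had 0 counts in all libraries.

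**Figure D4:**
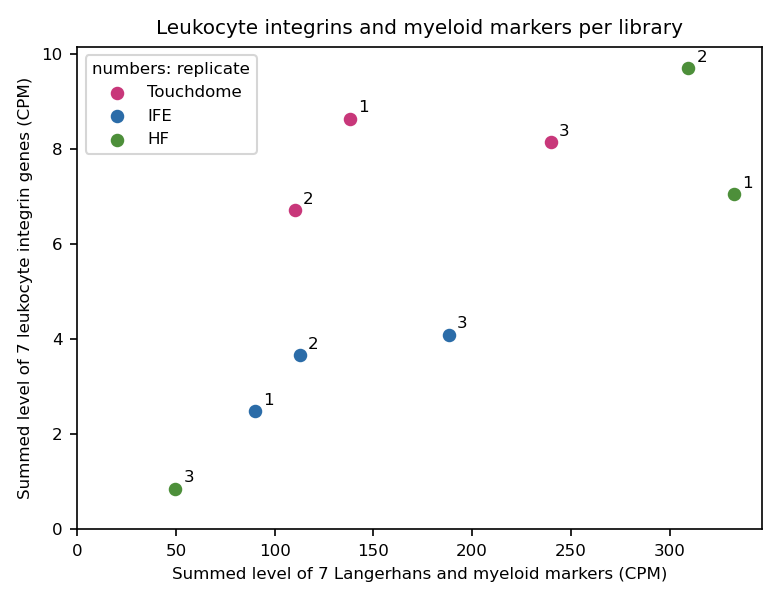
Summed level of the 7 leukocyte integrin genes (y axis, CPM) against the summed level of 7 Langerhans and myeloid markers (x axis, CPM), 1 point per library with its replicate number. The Touchdome points lie at 6.70 to 8.63 CPM, above the IFE points at 2.47 to 4.09 CPM at marker sums that overlap, and HF replicate 3 lies lowest on both axes.

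IFE replicate 2 was low for long genes, and many members are long. The median length of the longest annotated transcript was 5706 nt over the 40 tested members, against 3189 nt over the 15011 tested genes with an annotated transcript, and 11 members reach 8000 nt. In IFE replicate 2 the 768 genes of 8000 nt or more had a median log2 ratio of -0.50 to the other IFE libraries, and genes under 2000 nt one of 0.26. The 11 long members had a median of -0.69 there, and for 9 of them it was the lowest IFE library, as it was for 27 of the 40 members. Lama5 read 529, 261 and 534 CPM but 73.8, 74.7 and 70.1 TPM in the IFE libraries, so the drop was in the counts and not in the deposited TPM of that gene, while Lama3 was lower by both (123, 68.1 and 117 TPM).

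Without IFE replicate 2, 3 members were called higher (Hspg2, Itga1 and Itga4) and 1 lower (Itga3) in Touchdome against IFE, and 11 were called lower in HF than in IFE in place of 6. Those added included Itgb4, Lama3, Lamc1 and Plec, the last at -0.51 ± 0.17 (adjusted p = 0.0418, edgeR). Touchdome against HF then gave 6 higher and 11 lower in place of 5 and 7, adding Lama3 to the higher and Hspg2, Itgb6, Lamb3 and Nid1 to the lower. The plot of length against this ratio shows the members beside the medians of all genes. How far RNA length or quality accounts for the values of this library was not tested.

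**Figure D5:**
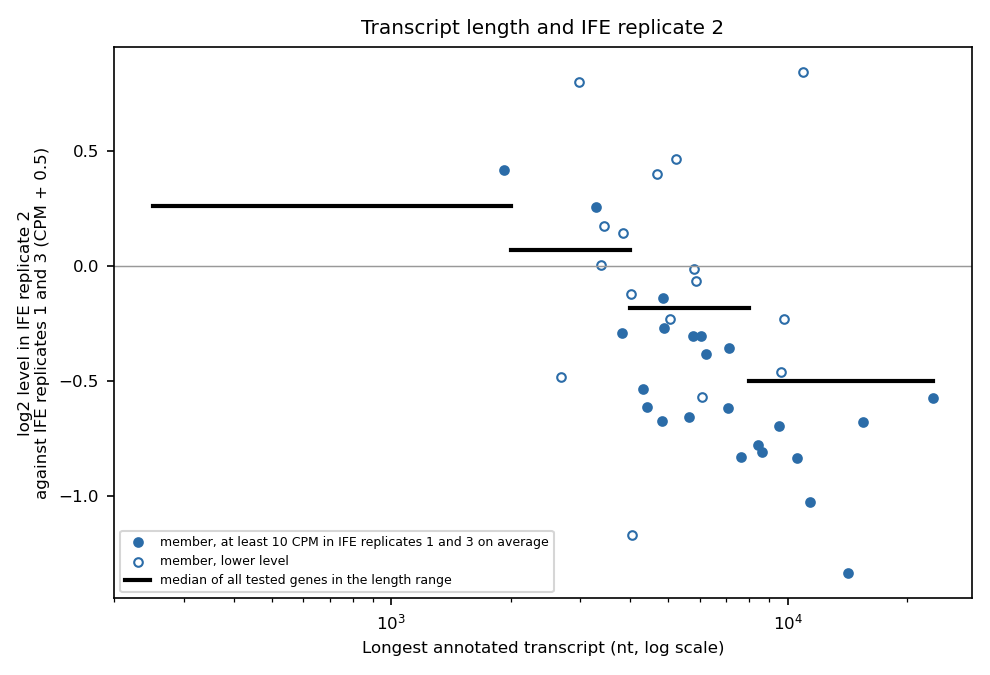
Log2 level in IFE replicate 2 relative to the mean of IFE replicates 1 and 3 (y axis, on CPM + 0.5) against the longest annotated transcript (x axis, nt, log axis) for 39 of the 40 tested members; black bars are medians of all tested genes in 4 length ranges, from 0.26 for the shortest to -0.50 for the longest. Of the 11 members of 8000 nt or more, 9 had their lowest IFE value in this library.

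Genes that act with the members were read from lists by function, which were chosen with earlier results of these data known. Of all 15046 tested genes, 1.30% were called for Touchdome against IFE, 24.6% for Touchdome against HF and 33.0% for HF against IFE. Of 24 genes of the basement membrane and its anchorage, 23 were tested: 0 were called between Touchdome and IFE in either direction, 3 passed as higher and 12 as lower for Touchdome against HF, and 14 were higher and 3 lower in HF than in IFE. Col4a4 and Col4a3, which encode collagen IV α4 and α3, had 33.0 ± 2.33 and 17.5 ± 3.13 CPM in HF against 0.329 ± 0.195 and 0.562 ± 0.392 CPM in IFE (SD, n = 3 each). The log2 fold changes were 6.50 ± 0.41 (adjusted p = 2.12e-07, edgeR) and 5.01 ± 0.57 (adjusted p = 3.47e-05, edgeR). Smoc1, encoding a calcium-binding basement membrane protein, rose by 4.99 ± 0.52 (adjusted p = 1.79e-05, edgeR) and Vwa1, encoding a perlecan-binding protein, by 1.85 ± 0.17 (adjusted p = 3.88e-06, edgeR) in the same comparison. The 3 genes lower in HF were Smoc2 (-2.33 ± 0.17), Col4a6 (-0.95 ± 0.12) and Tinagl1 (-1.84 ± 0.32), and the 3 higher in Touchdome than in HF were Tinagl1 (2.22 ± 0.32), Smoc2 (1.67 ± 0.16) and Col4a6 (0.79 ± 0.12). Sparc, a collagen-binding protein, was lower in Touchdome than in HF at -2.27 ± 0.28 (adjusted p = 0.0003, edgeR). Col17a1, the hemidesmosomal collagen XVII, passed in no comparison, at 7076 ± 439 CPM for Touchdome, 8088 ± 1250.4 for IFE and 7758 ± 416 for HF.

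Of 30 proteins on the cytoplasmic side of integrins, 28 were tested. None was called between Touchdome and IFE, beside 1.30% of all tested genes. In Touchdome against HF 11 were lower and 0 higher, beside 24.6% called. In HF against IFE 11 were higher and 2 lower, beside 33.0% called. Tns2, encoding a tensin that links integrins to actin, stood at 57.6 ± 14.9 CPM for Touchdome, 50.9 ± 4.90 for IFE and 246 ± 7.15 for HF, and HF against IFE was 2.27 ± 0.16 (adjusted p = 5.99e-07, edgeR). Fermt2, encoding kindlin-2, an activator of integrins, stood at 3.65 ± 2.68 CPM for Touchdome, 1.36 ± 0.406 for IFE and 20.5 ± 2.06 for HF (SD, n = 3 each), and HF against IFE was 3.94 ± 0.45 (adjusted p = 3.19e-05, edgeR). Actn1, an actin crosslinker, rose by 2.21 ± 0.22 (adjusted p = 1.79e-05, edgeR) and Kank1, a talin-binding protein, by 1.40 ± 0.14 (adjusted p = 9.73e-06, edgeR) in HF over IFE. Touchdome was below HF for the tensin gene Tns1 at -1.75 ± 0.19 (adjusted p = 3.63e-05, edgeR) and for Zyx, encoding zyxin, at -0.84 ± 0.12 (adjusted p = 0.000265, edgeR). Lims1, encoding PINCH-1, and Actn4 were lower in HF, by small amounts (-0.42 ± 0.13 and -0.34 ± 0.12). The median log2 fold change of the list in HF against IFE was 0.29 beside 0.00 over all genes.

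Of 21 other ligands of integrins, 16 were tested, and 2 were higher in Touchdome than in IFE: Tnc, whose gene drives the reporter and so was fixed by the sort, and Ccn2. Ccn2, a matricellular protein bound by several integrins, stood at 146, 193 and 486 CPM for Touchdome, 28.8, 35.4 and 46.5 for IFE and 2977, 2489.9 and 3463 for HF. The groups did not overlap, with Touchdome replicate 3 highest in its group, and Touchdome against IFE was 2.90 ± 0.46 (adjusted p = 0.023, edgeR). Touchdome against HF gave 3 higher and 8 lower, and HF against IFE gave 8 higher and 2 lower. The shares over all tested genes were 1.30% for Touchdome against IFE, 24.6% for Touchdome against HF and 33.0% for HF against IFE. Postn, encoding periostin, stood at 861 ± 288 CPM for Touchdome, 453 ± 88.9 for IFE and 3846 ± 483 for HF (SD, n = 3 each), and Egfl6 and Tgfb2, ligands or cargo of α8 and αv integrins, rose in HF over IFE by 2.99 ± 0.28 (adjusted p = 1.89e-05, edgeR) and 2.31 ± 0.17 (adjusted p = 7.63e-07, edgeR). Tgfb3 rose by 2.93 ± 0.30 (adjusted p = 2.1e-05, edgeR) in the same comparison. Thbs2 and Tgfb1 were lower in HF than in IFE, at -1.30 ± 0.18 (adjusted p = 0.000106, edgeR) and -0.54 ± 0.11 (adjusted p = 0.00164, edgeR). The fibroblast, smooth muscle, melanocyte and sebaceous marker sums given above were also higher in HF than in IFE. Their part in the calls of these 3 lists was not tested.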

How the data were processed

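RNA-seq of 9 libraries was deposited by the authors as 1 table with RSEM-type expected counts and TPM, a length-normalised level, per Ensembl gene. The submitters' processing notes list the build mm39 with RSEM 1.3.3, STAR 2.7.9a and DESeq2 1.38.2; which annotation release was used, and whether counting was stranded, is not given in the sources used here. In the deposited expected counts, 92.5% to 94.6% of values per library were whole, and they were rounded before testing. Totals were 9295059 to 28249763 per library, so that 0 counts allow up to 0.114 to 0.316 CPM (3 counts, counting error only). The CPM values were computed from these counts with TMM scaling.

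Symbols came from a reference annotation on GRCm38 (52081 of 55357 identifiers matched, and identifiers with no symbol held 0.673% to 2.14% of counts), so no coordinates of genes are given. It also gave transcript lengths. Promoter windows came from RefSeq on GRCm38.p6.

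All 9 libraries entered 1 fit in edgeR 4.0.16 (R 4.3.3): filterByExpr with a minimum count of 10 and a total of 15 left 15046 genes, then TMM factors, the robust quasi-likelihood test with group as the only term, and Benjamini-Hochberg adjustment over all genes at 0.05. Fold changes are log2 with their standard error. The script was tested on simulated data. The alternatives were DESeq2 1.42.0, RLE size factors, no filter, at least 1 CPM in 3 libraries, the 2 groups alone, the replicate number as a block, limma 3.58.1 on log2(TPM + 1) and log2(TPM + 0.1) of the deposited TPM, and each library left out; the block with the 2 groups alone was added after seeing the data. Chain shares were taken from TPM, or from CPM.

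The labels number the replicates in each group. Deviations from the group mean correlated between same-numbered Touchdome and IFE libraries (0.146, 0.173 and 0.203, all over 0.1), so these numbers were read as pairs, from the data and not from a statement in the labels. Same-numbered HF libraries gave 0.07, -0.026 and 0.033 with Touchdome and 0.059, -0.008 and 0.054 with IFE, and were not read as pairs.

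The members, partner lists and marker lists were chosen with earlier results of these data known. Values in every library were given for members called between Touchdome and IFE, for up to 16 members called in a comparison with HF that reach 10 CPM in a group, and for the 2 of each role highest in TPM; of each partner list, up to 4 called genes with the smallest p were named per comparison. Further members were given by library where a sentence turns on them, chosen after their values were seen. For 1 tested member the values are not reported here; it stays in all counts.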

Additional observations from a re-analysis of the deposited data

How the results depend on the processing

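Of 29 calls of a member in a comparison, 18 held under every alternative run, and 22 further pairs were called under at least 1. Of 2014 fold changes under the alternatives, 94 turned sign, 0 of them where either value was called. Of these, Itgal in HF against IFE was 0.14 without HF replicate 1 and 0.08 without HF replicate 3, in place of -0.59, none called, and without HF replicate 2 it was -6.08 on HF libraries all at 0. The cause of the shifts below was not tested unless stated.

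For Touchdome against IFE, 196 genes were called. DESeq2 gave 530, no filter 310, the 2 groups alone 105, limma 71 on log2(TPM + 1) and 121 on log2(TPM + 0.1). The replicate block gave 349, and 506 with the 2 groups alone, where the numbers were read as pairs from the data only. Members called higher were 6 with DESeq2, 3 with no filter, 0 with the 2 groups alone (where Itga4 failed the filter), 2 with the block and 3 with the block and the 2 groups alone (Hspg2, Itgb5 and Itgb8), in place of 1. Members called lower were 1 with DESeq2, no filter, the block, and the block with the 2 groups alone, in place of 0. Without single replicates the ranges were 112 to 232 genes, 1 to 3 members higher and 0 to 1 lower; fewest genes were called without IFE replicate 1 (112) or 3 (128).

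For Touchdome against HF, members higher were 2 with limma on either TPM scale in place of 5, and members lower were 11 with the 2 groups alone in place of 7. Without single replicates, 2745 to 4346 genes, 2 to 6 members higher and 5 to 11 members lower were called. For HF against IFE these were 4053 to 4992 genes, 9 to 11 higher and 4 to 11 lower. In Touchdome against HF, where numbers were not read as pairs, the replicate block lost Itgae (adjusted p = 0.0503, edgeR) and gained Nid1. Depth limits the leukocyte integrins, Lama2, Lamc3, Itga8, Nid1 and the IFE level of Itga4, which rest on few counts, and the length shift of IFE replicate 2 limits the long members.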
